A study of Homo sapiens with 12 samples.

Results

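The genes described here are 48 genes of mitosis and the mitotic spindle, taken by symbol from a named list of G2/M regulators, kinetochore, spindle and cytokinesis genes. All 48 were present among 18770 gene rows kept from the expression values, and all 48 were among the 16120 genes tested. They were followed by RNA sequencing in 3 cell lines of intrahepatic cholangiocarcinoma (ICC), a human cancer of the bile ducts inside the liver, namely SSP-25, RBE and HuH-28. Cells of each line were transfected for 48 h with 45 pmol per well of either control siRNA or an siRNA against LKB1, the kinase encoded by STK11, which gave 6 groups of 2 libraries and 12 libraries in all. HuH-28 was grown in MEM and the other lines in RPMI1640, both with serum, so that line and medium cannot be told apart in comparisons between lines. The siRNA sequences are not given in the sources used here, each line is a single cultured population, and the study describes libraries 1 and 2 of a group as a first and a second test. Whether a test had its own culture, and whether its control and LKB1 siRNA libraries were handled together, is not stated. The p-values therefore measure the spread between libraries, which may be technical, and an exact permutation test of 2 against 2 cannot go below 0.333.

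Entry into mitosis is driven by the kinase CDK1 with cyclin B. Its substrates include factors that fold chromosomes, break down the nuclear envelope and rebuild microtubules into a bipolar spindle. Kinetochores, assembled on CENPA chromatin, hold chromosomes to spindle microtubules through the NDC80 complex, while the spindle checkpoint (BUB1, BUB1B, BUB3, MAD2L1, TTK) restrains CDC20 and the anaphase promoting complex until all are attached. Separase then cuts cohesin, and the central spindle proteins PRC1 and KIF23 with the RhoA activator ECT2 position the cleavage furrow. Many of these genes are transcribed mainly in G2 and M phase, under the control of the DREAM and MuvB complexes with FOXM1 and MYBL2. These act at CHR elements and, with the factor NF-Y, at CCAAT boxes close to the start site.

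To show these elements, promoter stretches are given for 5 members chosen after their values were seen, with CHR elements (TTTGAA or TTCGAA, either strand) and CCAAT boxes (CCAAT, either strand) in capitals. Each run goes 5′ to 3′ on the strand of the gene from 130 bases before the annotated start to 20 bases from it (RefSeq, GRCh38.p14). KIF23 is at chr15:69414219-69414368 on the plus strand, CCNB2 at chr15:59105016-59105165 (plus), PLK1 at chr16:23678759-23678908 (plus), KIF11 at chr10:92593000-92593149 (plus) and PRC1 at chr15:90994516-90994665 on the minus strand.
KIF23: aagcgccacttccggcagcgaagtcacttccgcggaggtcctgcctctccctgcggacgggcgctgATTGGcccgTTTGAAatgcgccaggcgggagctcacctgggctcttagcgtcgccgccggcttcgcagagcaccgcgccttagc
CCNB2: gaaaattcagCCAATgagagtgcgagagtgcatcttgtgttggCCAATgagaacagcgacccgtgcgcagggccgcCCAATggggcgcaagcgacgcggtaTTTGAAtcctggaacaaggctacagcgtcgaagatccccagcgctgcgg
PLK1: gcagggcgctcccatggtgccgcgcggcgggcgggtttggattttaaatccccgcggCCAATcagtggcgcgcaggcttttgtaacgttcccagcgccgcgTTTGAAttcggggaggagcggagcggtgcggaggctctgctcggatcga
KIF11: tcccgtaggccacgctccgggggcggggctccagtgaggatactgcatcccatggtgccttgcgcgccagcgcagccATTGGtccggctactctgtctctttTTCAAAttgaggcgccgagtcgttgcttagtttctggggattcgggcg
PRC1: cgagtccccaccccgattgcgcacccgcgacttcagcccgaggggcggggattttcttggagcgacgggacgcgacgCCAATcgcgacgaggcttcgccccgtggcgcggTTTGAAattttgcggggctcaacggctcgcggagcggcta

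All 5 runs hold both elements. KIF23 had the lowest log2 fold change of the members on average over the lines and PRC1 the highest. KIF11 was the other member higher on average, CCNB2 fell in each line, and PLK1 changed in opposite directions in RBE and SSP-25.

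Before the members, the knockdown itself was read from STK11, as signal in normalized reads per kilobase. STK11 gave 698 and 600 in HuH-28 control libraries against 223 and 206 with LKB1 siRNA, 485 and 430 against 130 and 156 in RBE, and 464 and 459 against 61.8 and 72.8 in SSP-25. The remaining STK11 signal was thus 33.0%, 31.2% and 14.6% of control. Of the biliary markers, KRT7, KRT8, KRT18 and SOX9 were present in every line, while KRT19 (mean 10.4 in HuH-28 control libraries) and EPCAM (1.0) were close to absent in HuH-28. KRT8 had log2 fold changes with LKB1 siRNA of 0.56, -0.67 and 0.31 in the order HuH-28, RBE, SSP-25, and KRT18 of 0.42, -0.60 and 0.41, all past the threshold used below. KRT7 rose by 0.27 and 0.58 in HuH-28 and SSP-25 and SOX9 by 1.38 in SSP-25. Of the markers of other cell types, CD3E was at 0 and ALB, PTPRC, PECAM1 and VWF had group means of 11.4 or lower, whereas CD68 lay between 745 and 1928. PECAM1 rose in HuH-28 (log2 fold change 1.39) at signals of 4.0 or lower. The part of these marker changes in the results was not tested. The signals of all genes summed to between 9.90e+06 and 1.17e+07 in the 12 libraries, and no counts were used here, so depth per library is unknown.

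In response to LKB1 siRNA, most of the mitosis and spindle genes fell in RBE and in HuH-28, and fewer in SSP-25. The test was limma on log2(signal + 0.5), adjusted over all 16120 genes, with an adjusted p under 0.05 as the call. In HuH-28, 37 of the 48 members fell and 3 rose, where 15.5% of all genes fell and 14.3% rose, and the median log2 fold change was -0.38 for the members and 0.01 for all genes. In RBE, 44 fell and 1 rose (18.5% and 22.1% of all genes), with a median of -0.81 against 0.01. In SSP-25, 23 fell and 8 rose (21.1% of all genes in each direction), with a median of -0.17 against 0.02. Averaged over the lines, 42 fell and 2 rose (25.1% and 27.3%), with a median of -0.48 against 0.03. These are levels in bulk RNA, in which fewer cells in G2 and M phase and less RNA of these genes per cell cannot be told apart.

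Changes past 1 on the log2 scale were few. No member passed that size in HuH-28, where 4.04% of all genes did, and none on average over the lines (4.2%). In RBE there were 6, all lower (KIF23, CEP55, CENPF, DLGAP5, CCNB2 and AURKA, against 7.88% of all genes), and in SSP-25 there was 1, PRC1, which was higher (8.39%). The counts were less firm in HuH-28, for the rises in SSP-25 and for the falls on average, some of which did not pass without RBE. With each line fitted alone, 15 members fell and 1 rose in HuH-28. The HuH-28 calls lost there include CDK1, CCNA2, CCNB1, FOXM1, NEK2, NDC80, TACC3, TPX2, ESPL1, AURKB, CEP55 and KIF20B (limma adjusted p from 0.0526 to 0.117). The 8 members higher in SSP-25 became 5 without the first or the second SSP-25 control library and 4 without the second SSP-25 LKB1 siRNA library.

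**Figure D1:**
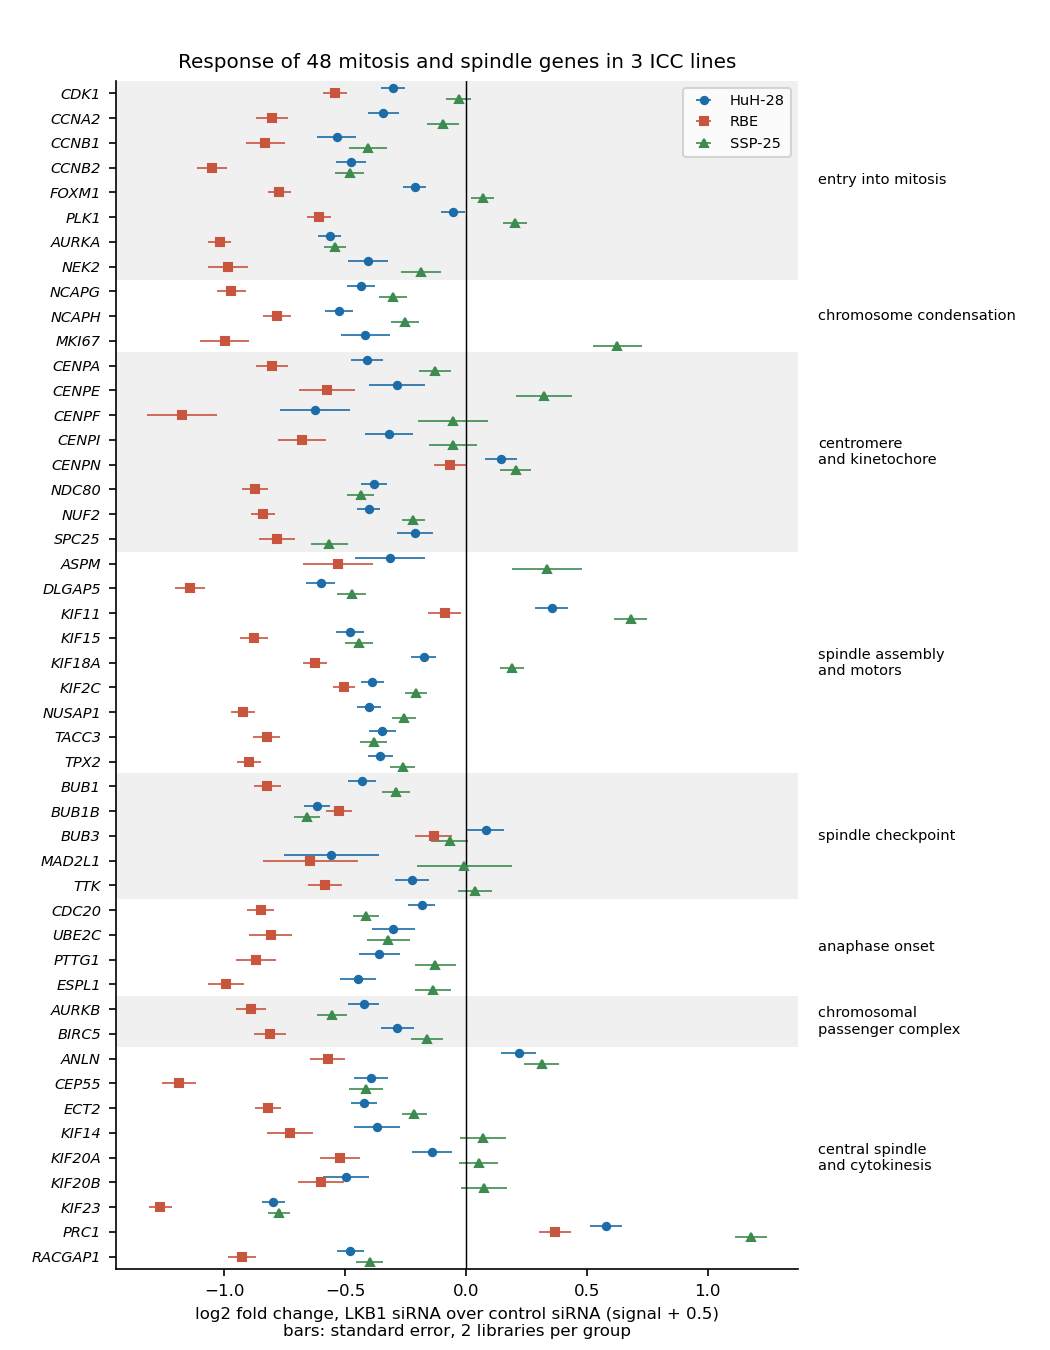
Log2 fold change with LKB1 siRNA (x axis, signal + 0.5) of each of the 48 members (y axis, grouped by step of mitosis) in HuH-28 (circles), RBE (squares) and SSP-25 (triangles), with bars of 1 standard error from limma. RBE lies farthest to the left for 47 members, and PRC1 is to the right of 0 in all 3 lines.

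**Figure D2:**
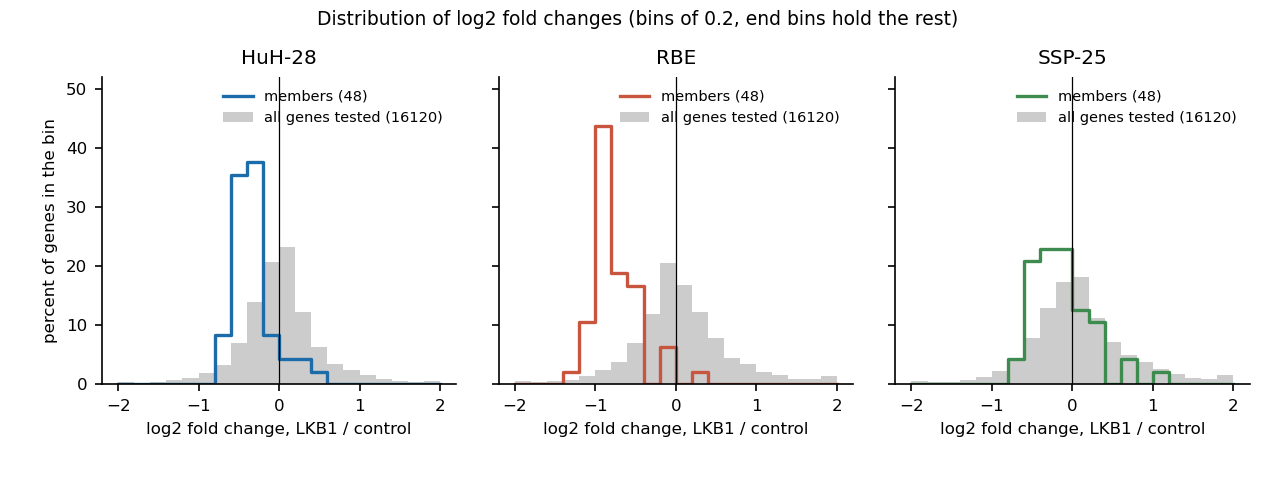
Percent of genes (y axis) in bins of 0.2 of log2 fold change (x axis) for the 48 members (line) and all 16120 genes tested (grey bars) in each ICC line. The members are shifted to the left, least in SSP-25, where they overlap the other genes widely, with medians of -0.38, -0.81 and -0.17.

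The lowest of the 3 log2 fold changes was in RBE for 47 members, the exception being BUB1B, and the highest was in SSP-25 for 38 and in HuH-28 for 9. A test of the difference between the 3 responses passed for 44 of 48 members, against 28.2% of all genes, and the members that did not pass were BUB1B, BUB3, CENPN and MAD2L1. The same direction past the threshold in all 3 lines was found for 23 members, of which 22 were lower and PRC1 was higher. PLK1, MKI67, CENPE, KIF18A and ANLN passed in opposite directions in different lines, in each case lower in RBE and higher in SSP-25. Neither direction reached the threshold in any line for BUB3. Orders of the lines and shared or opposite calls were not counted over all 16120 genes, so these counts describe the members only. By line, 15.5%, 18.5% and 21.1% of all genes fell in HuH-28, RBE and SSP-25. In a fit with a replicate block, which compares libraries of the same test, calls of the response to LKB1 siRNA were gained and none was lost. The single block adjusts test 1 against 2 over all lines and the block within each line does so line by line, and their values are given below where they change a call.

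**Figure D3:**
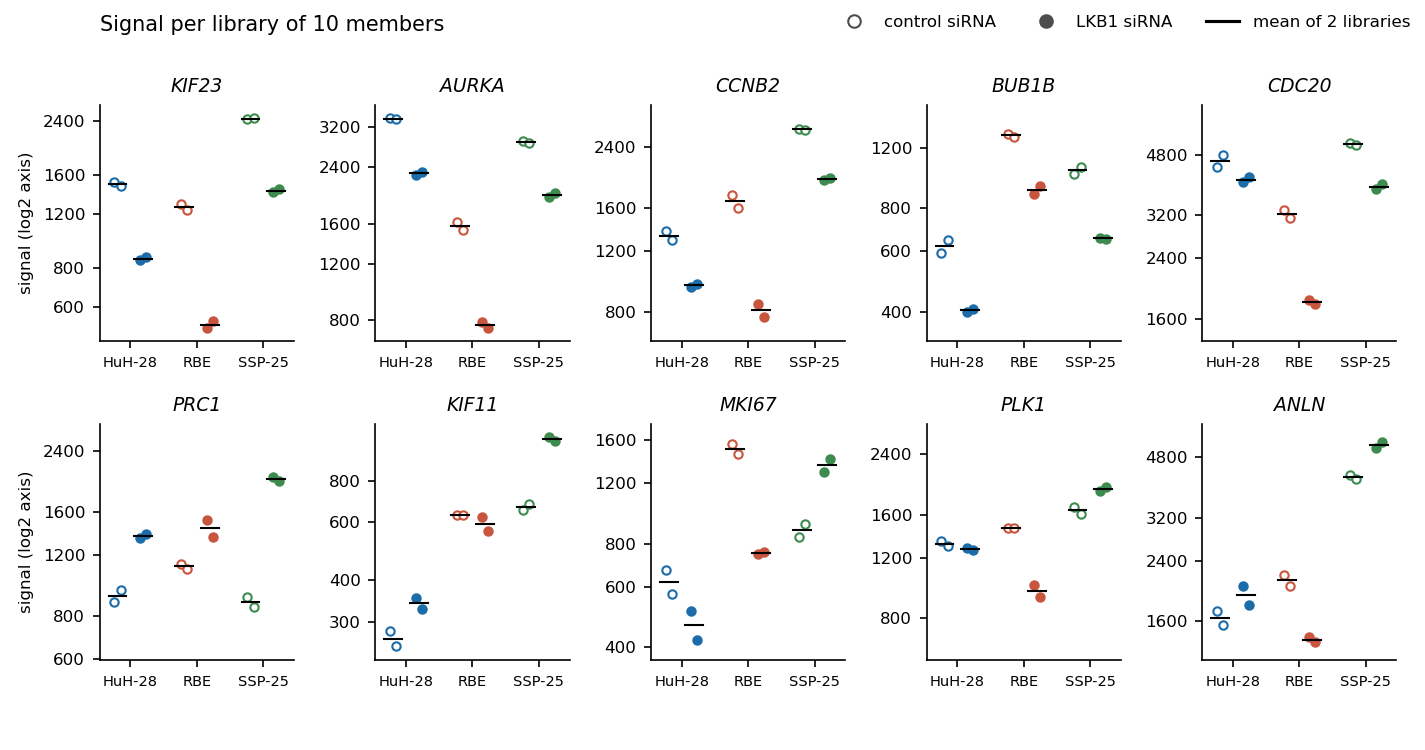
Signal per library (y axis, log2 axis) of 10 members in control (open) and LKB1 siRNA (filled) libraries of each ICC line (x axis), with a bar at the mean of the 2 libraries. KIF23, AURKA, CCNB2, BUB1B and CDC20 fall in each line, PRC1 rises in each, and MKI67, PLK1 and ANLN fall in RBE and rise in SSP-25.

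Among the 8 genes of entry into mitosis, 8 fell in RBE, 7 in HuH-28 and 3 in SSP-25, where PLK1 rose. AURKA, the kinase that matures centrosomes and activates PLK1, gave 3402 and 3376 in HuH-28 control libraries against 2270 and 2313 with LKB1 siRNA, 1615 and 1528 against 791 and 758 in RBE, and 2883 and 2852 against 1939 and 1998 in SSP-25. The control and LKB1 siRNA libraries did not overlap in any line. AURKA fell by 0.56, 1.02 and 0.54 on the log2 scale (standard error 0.05 in each, limma adjusted p = 2.6e-05, 3.1e-07 and 1.4e-05). CCNB2, a B-type cyclin, went from 1370 and 1292 to 946 and 967 in HuH-28, from 1751 and 1596 to 843 and 773 in RBE, and from 2713 and 2702 to 1929 and 1951 in SSP-25. Its RBE level after LKB1 siRNA was 48.3% of control, and in the other lines 71.9% and 71.7%.

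CCNB1, the main mitotic cyclin, had the highest mean control signal of the members. It gave 5043 and 5487 in HuH-28 control libraries against 3365 and 3914, 3804 and 3471 against 2023 and 2066 in RBE, and 4261 and 4228 against 3114 and 3291 in SSP-25. No groups overlapped, and the log2 fold changes were -0.54, -0.83 and -0.41 (standard error 0.08). CDK1, its kinase partner, fell by 0.30 in HuH-28 and 0.54 in RBE, and in SSP-25 its log2 fold change was -0.03 (adjusted p = 0.68). CCNA2, the cyclin of S and G2 phase, fell by 0.34 and 0.80 and had -0.09 in SSP-25 (adjusted p = 0.28). NEK2, a centrosome kinase, fell by 0.40 and 0.98 and had -0.19 (adjusted p = 0.097), which passed with a block within each line (adjusted p = 0.0225).

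FOXM1 and PLK1 had the smallest p-values of all members for a difference between the lines. FOXM1, a transcription factor of G2 and M phase genes, gave 915 and 892 against 806 and 754 in HuH-28, 1705 and 1707 against 1008 and 989 in RBE, and 2274 and 2202 against 2314 and 2384 in SSP-25. Its fall was thus clear in RBE (log2 fold change -0.77) and small in HuH-28 (-0.21), and in SSP-25 the 0.07 did not pass (standard error 0.05 in each, limma adjusted p = 1.7e-06, 0.0078 and 0.27). PLK1, the kinase that promotes mitotic entry and spindle assembly, gave 1338 and 1301 against 1279 and 1262 in HuH-28, 1468 and 1467 against 1002 and 926 in RBE, and 1689 and 1606 against 1871 and 1922 in SSP-25. It fell in RBE (-0.61, adjusted p = 1.1e-05), rose in SSP-25 (0.20, adjusted p = 0.0093), and had -0.05 in HuH-28 (adjusted p = 0.47). The call in SSP-25 was lost when the second control or the second LKB1 siRNA library was left out (adjusted p from 0.0658 to 0.075). Averaged without RBE, FOXM1 did not pass (adjusted p = 0.195), and PLK1, -0.15 over the 3 lines, became 0.074.

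Chromosome condensation was represented by 3 members, all lower in HuH-28 and RBE. The condensin I subunits NCAPG and NCAPH, which fold mitotic chromosomes, also fell in SSP-25. NCAPG gave 776 and 707 against 552 and 545 in HuH-28, 1047 and 1090 against 565 and 525 in RBE, and 1387 and 1426 against 1169 and 1113 in SSP-25. For NCAPH the values were 386 and 373 against 264 and 263, 574 and 522 against 322 and 315, and 634 and 647 against 555 and 523. In both genes each LKB1 siRNA library was below each control library of its line, and the changes in SSP-25 were -0.30 and -0.25, of which NCAPH had an adjusted p of 0.0565 without the second SSP-25 LKB1 siRNA library. MKI67, the Ki-67 protein that coats mitotic chromosomes and is used as a marker of proliferation, is described here because of its opposite directions, a choice made after its values were seen. It gave 671 and 571 against 511 and 421 in HuH-28, 1556 and 1454 against 747 and 759 in RBE, and 839 and 913 against 1294 and 1412 in SSP-25. The level after LKB1 siRNA was 75.0%, 50% and 154% of control (limma adjusted p = 0.012, 4.2e-05 and 0.00082), which is a log2 fold change of -0.42 in HuH-28 and 0.63 in SSP-25 (standard error 0.10). The HuH-28 call was lost when the first control or the second LKB1 siRNA library was left out and with the line fitted alone (adjusted p from 0.0738 to 0.142), and averaged without RBE the -0.26 over the 3 lines became 0.11 (adjusted p = 0.33).

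Of the 8 centromere and kinetochore genes, 7 fell in RBE, 5 in HuH-28 and 3 in SSP-25, where CENPE and CENPN rose. In SSP-25, 21.1% of all genes rose, so the rises in this step are near that share. NDC80 and NUF2 together bind microtubules at the outer kinetochore. NDC80 gave 1625 and 1495 against 1214 and 1180 in HuH-28, 747 and 772 against 428 and 402 in RBE, and 1946 and 1879 against 1413 and 1414 in SSP-25. For NUF2 they were 541 and 510 against 403 and 391, 1015 and 1016 against 555 and 580, and 1503 and 1501 against 1271 and 1313. Both fell in every line with no overlap of libraries, NDC80 by 0.38, 0.87 and 0.44 and NUF2 by 0.40, 0.84 and 0.22. SPC25, a subunit of the same complex, fell by 0.78 in RBE and 0.56 in SSP-25 and had -0.21 in HuH-28 (adjusted p = 0.06), which passed when either RBE LKB1 siRNA library was left out (adjusted p up to 0.0273).

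CENPE, a kinetochore motor, had the lowest mean control signal of the members. It gave 167 and 132 against 135 and 110 in HuH-28, where the groups overlapped, 192 and 200 against 133 and 129 in RBE, and 305 and 314 against 376 and 398 in SSP-25. Its log2 fold changes were -0.28, -0.58 and 0.32 (standard error 0.12, limma adjusted p = 0.096, 0.0029 and 0.048). The HuH-28 value passed with a block within each line (adjusted p = 0.00726) and without the second control or the first LKB1 siRNA library of HuH-28 (adjusted p up to 0.0308). The rise in SSP-25 did not pass in 12 of 22 alternatives, including those that left out any 1 library of SSP-25 or RBE (adjusted p from 0.0531 to 0.198), and the average of -0.18 (adjusted p = 0.045) became 0.019 without RBE. CENPF, a large kinetochore protein, fell by 0.63 in HuH-28 and 1.18 in RBE and had -0.05 in SSP-25 (adjusted p = 0.81). Its HuH-28 call was lost without the first control library, the second LKB1 siRNA library or the other lines (adjusted p from 0.0574 to 0.148). CENPA, the histone variant that marks centromeres, fell by 0.41 and 0.80 and had -0.13 in SSP-25 (adjusted p = 0.16). CENPI fell by 0.32 and 0.68 and had -0.05 (adjusted p = 0.72), its fall in HuH-28 being lost in 11 of 22 alternatives. CENPN, which reads CENPA nucleosomes, had 0.15 in HuH-28 and -0.07 in RBE (adjusted p = 0.13 and 0.46) and rose by 0.21 in SSP-25 (adjusted p = 0.031), a call lost without any 1 SSP-25 library (adjusted p up to 0.17).

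The 9 spindle assembly and motor genes had 7 lower and 1 higher in HuH-28, 8 lower in RBE, and 6 lower and 2 higher in SSP-25. Of all genes, 14.3% rose in HuH-28 and 21.1% in SSP-25, so the rises in this step are near those shares. DLGAP5, which stabilizes microtubules near chromosomes, gave 1150 and 1069 against 728 and 734 in HuH-28, 554 and 523 against 252 and 236 in RBE, and 1203 and 1148 against 817 and 877 in SSP-25. It fell to 65.9%, 45.3% and 72.1% of control. NUSAP1, a microtubule bundling protein, gave 1729 and 1715 against 1272 and 1339, 2389 and 2336 against 1283 and 1209, and 1830 and 1911 against 1552 and 1578. Libraries did not overlap for either gene in any line, and NUSAP1 fell by 0.40, 0.92 and 0.26. The spindle assembly factor TPX2, the centrosome protein TACC3, and the motors KIF15 and KIF2C also fell in all 3 lines, though KIF2C missed the threshold in SSP-25 without the second LKB1 siRNA library (adjusted p = 0.0514).

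KIF11, the motor that slides antiparallel microtubules apart to make the spindle bipolar, went the other way, and its values are given because of that, a choice made after they were seen. It gave 280 and 253 against 355 and 327 in HuH-28, 631 and 629 against 621 and 566 in RBE, and 655 and 680 against 1083 and 1060 in SSP-25. KIF11 rose by 0.68 in SSP-25 and by 0.36 in HuH-28 (adjusted p = 3.5e-05 and 0.0035), and RBE, at -0.09, did not pass (adjusted p = 0.34). In HuH-28 it had an adjusted p of 0.0877 with the line fitted alone, and its average of 0.32 had 0.0901 without SSP-25. KIF18A, a motor that damps chromosome movements, fell by 0.17 in HuH-28 and 0.62 in RBE and rose by 0.19 in SSP-25 (adjusted p = 0.029, 1e-05 and 0.014). Its fall in HuH-28 was lost without any 1 HuH-28 library, its rise in SSP-25 without the first control or the second LKB1 siRNA library, and averaged without RBE it had 0.0081. ASPM, a spindle pole protein, gave 279 and 202 against 214 and 170 in HuH-28, where the groups overlapped, 392 and 400 against 283 and 266 in RBE, and 490 and 556 against 654 and 665 in SSP-25, where the LKB1 siRNA libraries were the higher ones. Its log2 fold changes were -0.31, -0.53 and 0.34 (adjusted p = 0.14, 0.015 and 0.089). The SSP-25 value passed in 5 of 22 alternatives (adjusted p from 0.00385 to 0.042), namely a block within each line, quantile normalization, the line fitted alone and leaving out either HuH-28 control library. The HuH-28 value passed with a block within each line and on leaving out control library 2 of that line (adjusted p up to 0.0145). The RBE call was lost without either control library or without the second LKB1 siRNA library (adjusted p from 0.0584 to 0.0842).

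Of the 5 spindle checkpoint genes, 4 fell in RBE, 3 in HuH-28 and 2 in SSP-25. BUB1B, which encodes BUBR1, a subunit of the checkpoint complex that inhibits CDC20, gave 593 and 647 against 400 and 409 in HuH-28, 1311 and 1291 against 882 and 927 in RBE, and 1008 and 1055 against 655 and 653 in SSP-25. No libraries overlapped, and the log2 fold changes of -0.61, -0.53 and -0.66 (standard error 0.05) were close to each other, with an adjusted p of 0.38 for a difference between the lines. BUB1, the kinase that recruits BUBR1 to kinetochores, gave 970 and 890 against 712 and 667, 1162 and 1162 against 663 and 652, and 1538 and 1644 against 1286 and 1315. It fell by 0.43, 0.82 and 0.29. BUB3, which brings BUB1 and BUBR1 to kinetochores, had 0.08, -0.13 and -0.07 (standard error 0.08, adjusted p = 0.47, 0.2 and 0.53), of which the RBE value passed with a block within each line (adjusted p = 0.0224). TTK, the kinase that starts the checkpoint signal, fell by 0.22 in HuH-28 and 0.58 in RBE and had 0.04 in SSP-25 (adjusted p = 0.04, 0.00013 and 0.72), and its HuH-28 call was lost in 12 of 22 alternatives. MAD2L1 was the member with the widest error (0.20), and its -0.64 in RBE passed (adjusted p = 0.025) with all libraries, but not without any 1 of the 4 RBE libraries (adjusted p up to 0.127), while its -0.56 in HuH-28 (adjusted p = 0.058) passed without the first control or the second LKB1 siRNA library of HuH-28, with the single block (adjusted p = 0.0209) and with a block within each line (adjusted p = 0.00204).

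All 4 genes of anaphase onset fell in HuH-28 and RBE. CDC20, the activator of the anaphase promoting complex, gave 4431 and 4801 against 3989 and 4139 in HuH-28, 3311 and 3156 against 1814 and 1776 in RBE, and 5204 and 5135 against 3816 and 3946 in SSP-25. It fell by 0.85 and 0.41 in RBE and SSP-25, and its smaller fall in HuH-28 (0.18, adjusted p = 0.031) was lost in 6 of 22 alternatives, among them leaving out HuH-28 control library 2, HuH-28 LKB1 siRNA library 1 or either RBE LKB1 siRNA library (adjusted p up to 0.233 over the 6). ESPL1, which encodes separase, gave 217 and 186 against 153 and 142, 492 and 481 against 237 and 252, and 416 and 419 against 378 and 382. Its libraries did not overlap, yet the SSP-25 difference of -0.14 did not pass (adjusted p = 0.18), while those of -0.45 and -0.99 did. UBE2C, the ubiquitin-conjugating enzyme of the complex, fell by 0.30, 0.81 and 0.32 (adjusted p = 0.029, 7e-05 and 0.016). The SSP-25 call was lost without any 1 SSP-25 library and the HuH-28 call without the second control or first LKB1 siRNA library. PTTG1, which encodes securin, the inhibitor of separase, has near-identical copies in the genome, so its short reads may be shared, and it had -0.36, -0.87 and -0.13, where the HuH-28 call was lost on leaving out control library 2 or LKB1 siRNA library 1 (adjusted p from 0.061 to 0.114, line alone included).

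Both chromosomal passenger members fell in HuH-28 and RBE. AURKB, the kinase that corrects wrong attachments, gave 1179 and 1331 against 908 and 961 in HuH-28, 1609 and 1611 against 868 and 871 in RBE, and 4584 and 4292 against 2993 and 3054 in SSP-25. It fell by 0.42, 0.89 and 0.55 with no overlap of libraries. BIRC5, which encodes survivin and brings AURKB to the centromere, gave 1609 and 1455 against 1316 and 1201, 2373 and 2229 against 1355 and 1270, and 4405 and 4369 against 3934 and 3922. Its falls in HuH-28 and RBE were 0.28 and 0.81, and in SSP-25 the -0.16 did not pass (adjusted p = 0.082). It passed with the single block (adjusted p = 0.034), with a block within each line (0.00414) and with the line fitted alone (0.011). The HuH-28 call of BIRC5 was lost without the first control library, without the second LKB1 siRNA library and with the line fitted alone (adjusted p from 0.0562 to 0.124).

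The 9 genes of the central spindle and cytokinesis held both extremes. KIF23, the motor subunit of centralspindlin, gave 1518 and 1472 against 851 and 869 in HuH-28, 1295 and 1236 against 512 and 541 in RBE, and 2423 and 2450 against 1411 and 1439 in SSP-25. It fell to 57.5%, 41.6% and 58.5% of control, by 0.80, 1.26 and 0.77 on the log2 scale (standard error 0.05, limma adjusted p = 3.4e-06, 1.1e-07 and 1.5e-06), in each line the lowest log2 fold change of all members. RACGAP1, the other subunit of centralspindlin, fell by 0.48, 0.93 and 0.40. PRC1, which bundles the antiparallel microtubules on which centralspindlin gathers, gave 877 and 949 against 1348 and 1382 in HuH-28, 1133 and 1091 against 1521 and 1357 in RBE, and 909 and 849 against 2021 and 1961 in SSP-25. It was higher in each LKB1 siRNA library than in each control library of its line, at 150%, 129% and 227% of control. Its log2 fold changes were 0.58, 0.37 and 1.18 (standard error 0.07, limma adjusted p = 0.00017, 0.0014 and 8.4e-07), in each line the highest of the members.

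CEP55, the midbody protein that recruits the abscission machinery, fell by 0.39, 1.19 and 0.41, and ECT2 by 0.42, 0.82 and 0.21. The SSP-25 call of ECT2 was lost without the second control library and after quantile normalization (adjusted p from 0.079 to 0.0967). ANLN, anillin, the scaffold of the contractile ring, is given because of its opposite directions, a choice made after its values were seen. It gave 1711 and 1560 against 2027 and 1781 in HuH-28, 2181 and 2026 against 1437 and 1393 in RBE, and 4249 and 4128 against 5103 and 5308 in SSP-25. It rose by 0.31 in SSP-25 and fell by 0.57 in RBE (adjusted p = 0.0061 and 0.00017). The 0.22 in HuH-28 (adjusted p = 0.046) was lost in 14 of 22 alternatives, with adjusted p up to 0.249, among them leaving out HuH-28 control library 2, HuH-28 LKB1 siRNA library 1 or any single library of RBE or SSP-25. The kinesins KIF14 and KIF20B fell in HuH-28 and RBE and had 0.07 each in SSP-25 (adjusted p = 0.6 and 0.58), and the HuH-28 call of KIF14 was lost without the first control library, the second LKB1 siRNA library or the other lines (adjusted p from 0.0847 to 0.134). KIF20A fell by 0.52 in RBE and had -0.14 and 0.05 elsewhere (adjusted p = 0.23 and 0.66).

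In the control libraries, the members were among the higher genes of each line and most were highest in SSP-25. The median member signal was 1454 in SSP-25, 1137 in RBE and 914 in HuH-28, above 90.2%, 89.0% and 84.5% of the genes tested in that line. Against HuH-28, 31 members were higher and 16 lower in RBE (38.1% and 39.2% of all genes), with a median log2 difference of 0.36. Against HuH-28, 37 were higher and 5 lower in SSP-25 (36.8% and 37.9%), with a median of 0.74. Against RBE, 37 were higher and 7 lower in SSP-25 (37.2% and 35.9%), with a median of 0.40, which became 0.21 after quantile normalization. Differences past 1 on the log2 scale were found for 9 members in RBE against HuH-28 (41.9% of all genes), 6 of them higher, for 17 in SSP-25 against HuH-28 (38.0%), all higher, and for 6 in SSP-25 against RBE (37.4%), all higher. The shares of all genes were large, since the lines differ widely from each other.

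**Figure D4:**
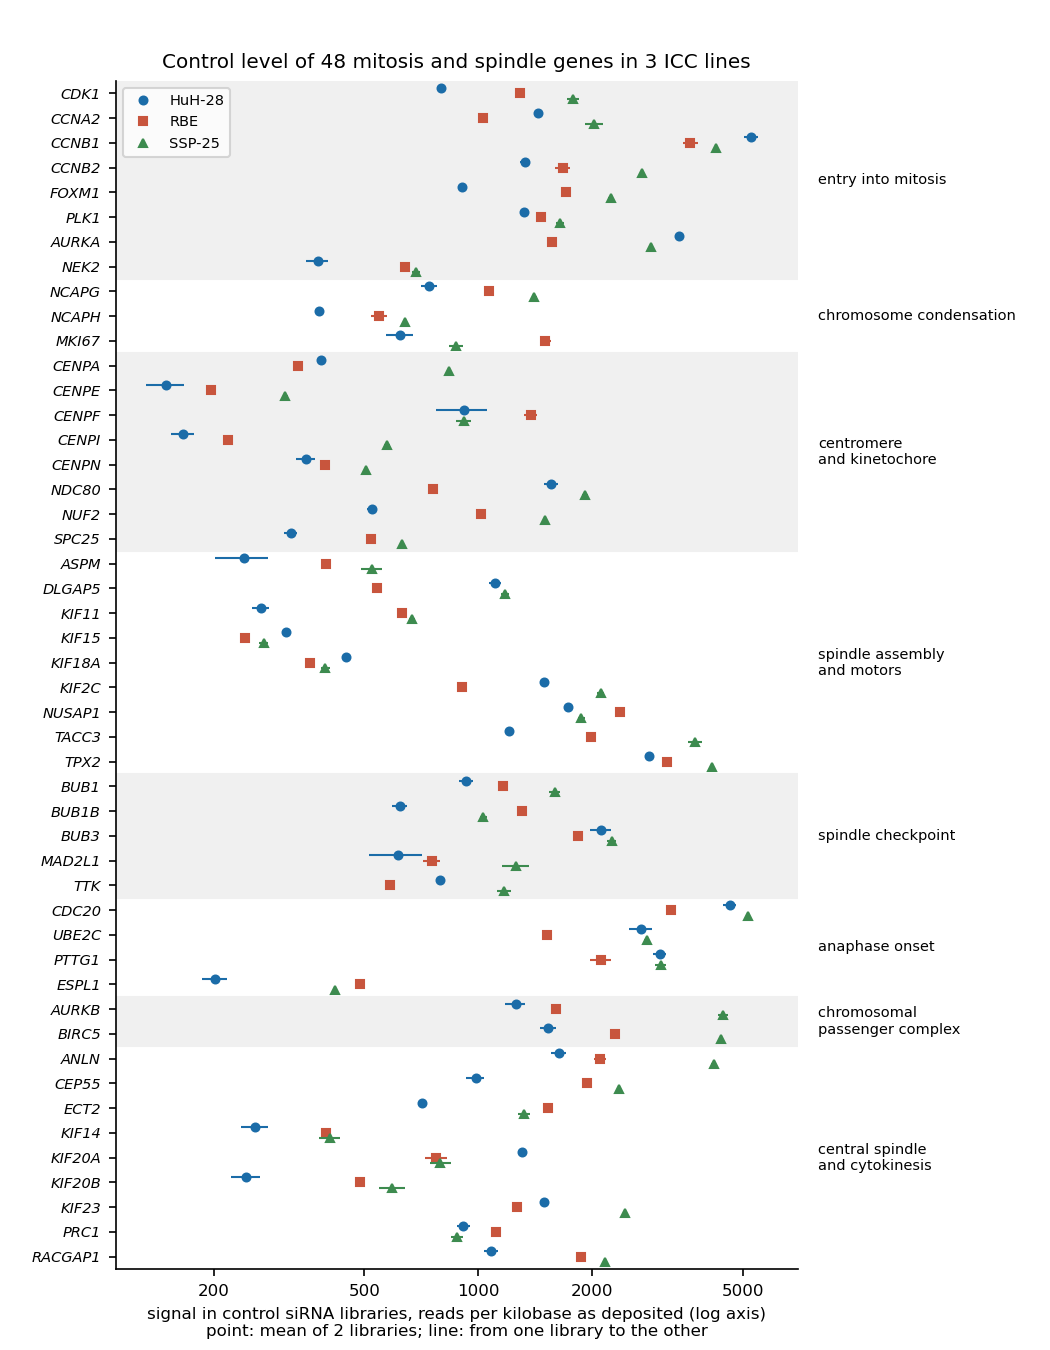
Mean signal in the control siRNA libraries (x axis, log axis, normalized reads per kilobase as deposited) of the 48 members (y axis) in the 3 ICC lines, with a line from one library to the other. SSP-25 has the highest mean for 36 members, and AURKA and CCNB1 are highest in HuH-28.

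SSP-25 had the highest control mean for 36 members, RBE for 7 and HuH-28 for 5. AURKB and CENPI differed most between SSP-25 and HuH-28. AURKB had 4438 ± 206 in SSP-25, 1610 ± 1.59 in RBE and 1255 ± 107 in HuH-28 (SD, n = 2), with a log2 difference of 1.82 between SSP-25 and HuH-28 (limma adjusted p = 2.3e-09). CENPI had 574 ± 13.8, 219 ± 2.28 and 166 ± 16.0 in the same order (1.79, adjusted p = 7.1e-08). The order was not common to all members. AURKA was highest in HuH-28, at 3389 ± 18.3 (SD, n = 2), and lowest in RBE, at 1571 ± 61.6, while MKI67 was highest in RBE, at 1505 ± 71.9, and lowest in HuH-28, at 621 ± 70.8. NDC80 was lower in RBE than in HuH-28 by 1.04 on the log2 scale, although its partner NUF2 was higher there by 0.95. PRC1 was the only member whose lowest control mean was in SSP-25 (879 ± 42.2, n = 2), where it did not differ from HuH-28 (log2 difference -0.05, limma adjusted p = 0.47). After LKB1 siRNA, SSP-25 had the highest mean for 41 members, and the lowest mean was in RBE for 25 and in HuH-28 for 23.

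As a share of all signal, the members took 0.543% and 0.511% in the HuH-28 control libraries and 0.415% and 0.401% with LKB1 siRNA. RBE went from 0.601% and 0.595% to 0.352% and 0.341%. SSP-25 went from 0.747% and 0.754% to 0.687% and 0.698%. The libraries did not overlap in any line, and the drop was smallest in SSP-25, the line with the least STK11 signal left. A relation between the drop and the remaining STK11 signal was not tested.

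Other genes of the same machinery, 138 in 7 lists, were counted in the same way. On average over the lines 95 of the 138 fell and 8 rose (25.1% and 27.3% of all genes), with a median log2 fold change of -0.25. By line, 100 fell and 5 rose in RBE (18.5% and 22.1% of all genes), and 58 and 5 in HuH-28 (15.5% and 14.3%). In SSP-25, 49 fell and 15 rose (21.1% in each direction). The kinase MELK fell by 0.62, 1.28 and 1.08, and the CENPA chaperone HJURP by 0.51, 1.18 and 0.54. HMMR, a spindle protein, fell by 1.04, 1.74 and 1.37, more than any member, and DEPDC1 by 0.81, 1.45 and 0.48. Against the direction of most, the microtubule plus-end protein CLASP1 rose by 0.57, 1.08 and 1.27 and the cohesin subunit STAG2 by 0.47, 0.40 and 0.74. Within the 12 genes of the DREAM and MuvB complexes, 6 fell on average and 1 rose, with E2F4 at -0.24, -0.43 and -0.87 and TFDP2, a dimer partner of E2F factors, at -0.60, -0.42 and -0.70. In the anaphase promoting complex list 9 of 18 fell on average and 2 rose, with CDC27 at -0.35, -0.79 and -0.49 and CDC16 at -0.11, -0.21 and -0.48. Beside the counts of these 2 lists, 25.1% of all genes fell on average and 27.3% rose.

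Genes of DNA replication, which act in S phase, gave a reference outside mitosis. Of 38, 32 fell in RBE (18.5% of all genes), 15 in HuH-28 (15.5%) and 19 in SSP-25 (21.1%), where 2 rose (21.1%). On average 31 fell (25.1%), with a median of -0.26. PRIM2, a primase subunit, fell by 0.56, 0.67 and 0.76, and POLA2, a subunit of DNA polymerase alpha, by 0.50, 0.73 and 0.80, so that both were lowest in SSP-25, unlike all members but BUB1B. These 2 genes were chosen by their p and do not stand for the list, whose median was lowest in RBE. The replication median in SSP-25 was -0.21 and that of the members -0.17, while in RBE they were -0.45 and -0.81.

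Promoter windows of 300 bases, from 250 bases before the annotated start, were found for 40 of the 48 members. A CHR element was present in 72.5% of these members and in 16.4% of 11733 tested genes with a window. For the CCAAT box the shares were 75.0% and 42.9%, and for both elements in 1 window 57.5% and 6.90%. In 150 other mitotic and replication genes with a window the shares were 38.0% for the CHR element, 55.3% for the CCAAT box and 22% for both. The elements lay close to the start, as in the printed runs, where the CHR element begins 20 bases before the start in PRC1, 28 in KIF11, 29 in CCNB2 and in PLK1, and 55 in KIF23. By step, both elements were found in 6 of 8 members with a window for the central spindle and cytokinesis, in 5 of 8 for spindle assembly and in 3 of 6 for entry into mitosis. The 23 members with both elements had a median log2 fold change of -0.80 in RBE, -0.05 in SSP-25 and -0.40 in HuH-28, while the 17 without had -0.82, -0.22 and -0.39. PRC1 and KIF11 hold both elements, as does KIF23. A match is a run of letters in the reference and not a measured site, and CENPE, CENPI, KIF2C and TACC3 held neither in this window.

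**Figure D5:**
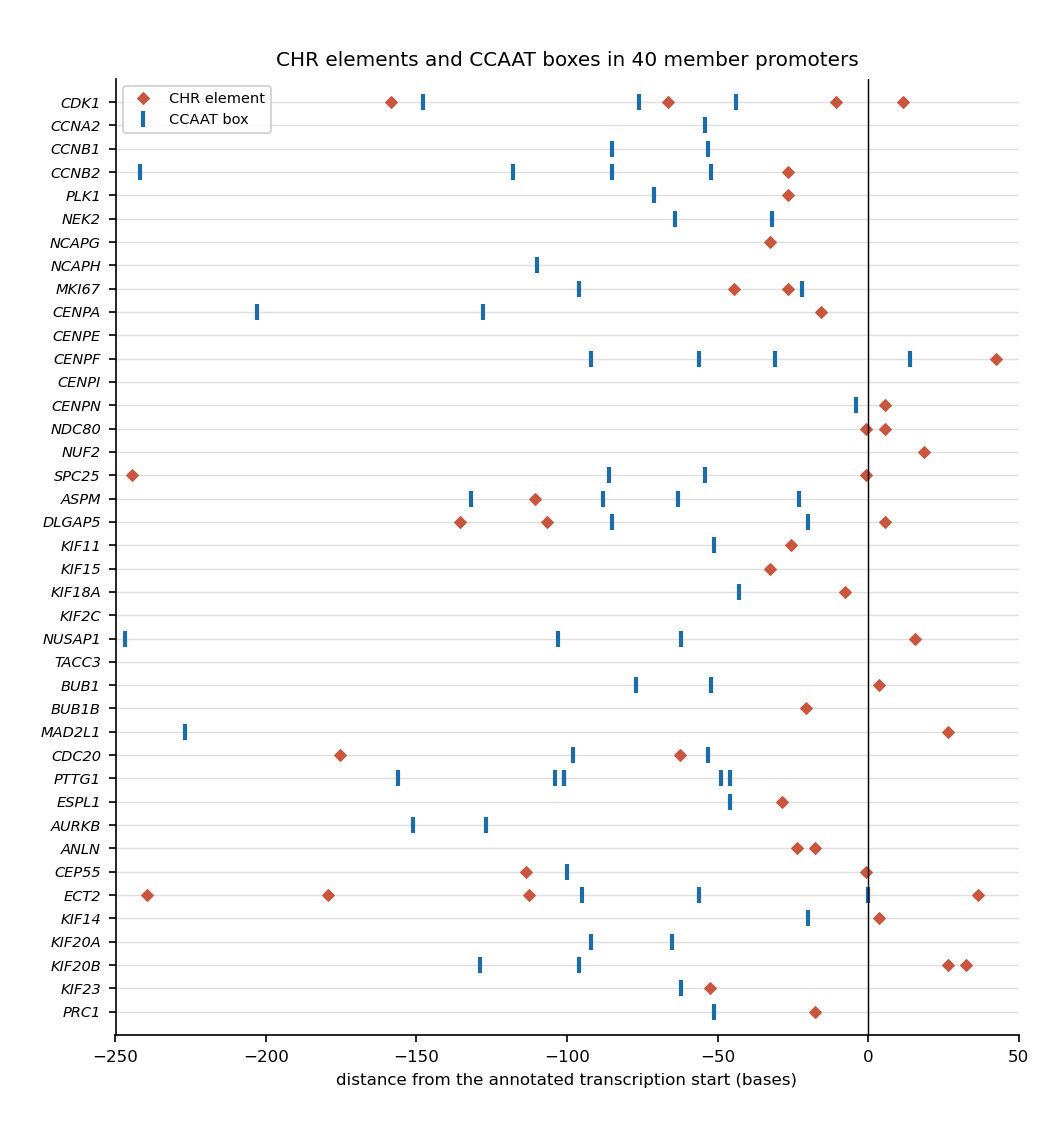
Position of CHR elements (diamonds) and CCAAT boxes (bars) on either strand, in bases from the annotated start (x axis), in 40 members with a promoter window (y axis), all windows of a gene on 1 row. Most CHR elements lie within 50 bases of the start, and CENPE, CENPI, KIF2C and TACC3 have neither element.

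The rising members were also compared for letters in their 3′ UTRs. In earlier results of these data, the 7-base word GCAGTAC had gone with higher log2 fold changes, so that finding it in genes that rose is no independent evidence. Of the 48 members, 2 hold the word in their longest annotated 3′ UTR (GENCODE v29, GRCh38), PRC1 and KIF11, which are the 2 members higher on average over the lines. Of all 14939 tested genes with a 3′ UTR, 6.30% hold it, and their median log2 fold change on average over the lines was 0.23, against 0.02 for the others. The sites, with the word in capitals, begin at base 933 of 1093 in PRC1 on chromosome 15 and at base 406 of 1599 in KIF11 on chromosome 10.
PRC1: gtctgcctgcaGCAGTACtactgtcaacat
KIF11: aaagatataagGCAGTACtgtaaattcagt

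Of the 138 other mitotic genes, 132 had a 3′ UTR, and CENPO, CLASP1, DYRK1A and PDS5B hold the word. The 4 holders gave a mixed picture. CENPO and PDS5B fell in RBE, while all 4 rose in SSP-25. Averaged over the lines, only CLASP1 passed among them, and it rose. Their median log2 fold change on that average was 0.09, against -0.25 for the other genes of these lists with a 3′ UTR. For RBE alone the medians were -0.04 and -0.39. A different word, GAAGGAA, had gone with lower values in the earlier results of these data. It was held by 10 members, KIF11, KIF23, CCNB2 and NCAPG among them (20.8%, against 23.5% of tested genes). The longest 3′ UTR was taken over all annotated transcripts with a coding sequence, with no filter on their type. Some of these stretches may therefore be coding in other transcripts of the gene. Whether the siRNA acts on any of these sites was not tested.

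The members were also described by coding length, with no test. The 13 members with a coding length of at least 3000 bases, MKI67, CENPE, CENPF, ASPM, KIF11 and ANLN among them, had a median of -0.43 in HuH-28, of -0.73 in RBE and of 0.07 in SSP-25. The 35 shorter members had -0.36, -0.81 and -0.21. Long members went both ways in SSP-25, from BUB1B at -0.66 to KIF11 at 0.68. Across the 48 members, Spearman's rho between coding length and log2 fold change in SSP-25 was 0.28, and across 15030 tested genes 0.10. In HuH-28 the values were -0.15 and -0.05, and in RBE 0.01 and 0.01. Each rho is a description over genes that share libraries. In HuH-28, 12 of the 13 long members were higher in the first control library than in the second, by a median of 0.22 on the log2 scale, and 11 of 13 were higher in the first LKB1 siRNA library. In SSP-25, 1 of 13 was higher in the first control library, with a median difference of -0.08. The part of these library differences in the rises of long members was not tested.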

How the data were processed

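RNA of 12 libraries (TruSeq V2, single 40-base reads, Illumina HiSeq) was processed by the authors. The study names NextGENe, NCBI Build 36.1 and RefSeq mRNA, whereas hg19 (GRCh37), edgeR and TopHat 1.2.0 appear in the processing notes of the submitters. Which of these produced the values could not be told. The authors deposited 1 value per gene and library, normalized reads per kilobase, treated as signal and not as counts. Date-like symbols (28) and repeated rows (17) were dropped. For 9 symbols with different values on several rows, none of them a member, each row was kept as a gene. The 16120 genes that reached 1 in 2 or more libraries were tested with limma 3.58.1 (R 4.3.3) on log2(signal + 0.5), with all 6 groups in 1 fit (6 residual degrees of freedom), a variance trend and Benjamini-Hochberg adjustment over all genes. Fold changes of low genes are understated by the pseudocount. The fit was tested on simulated data with independent errors and the same planted change in every line. Recovery was read for the average over the lines only, so calls within a line and differences between lines were not covered. Per-library values are given for the 2 members of each step with the smallest average p, the 2 with the smallest p between lines and the highest and lowest control signal. Outside this rule they are also given for MKI67, KIF11, ANLN and ASPM, and for STK11. From each other list, log2 fold changes are given for up to 2 genes with the smallest average p. Members and lists were chosen with earlier results of these data known. The study calls the numbers a first and a second test, so the replicate block was fitted as an alternative, over all lines and within each line. Deviations of same-numbered libraries correlated at 0.43 (HuH-28), 0.0023 (RBE) and 0.032 (SSP-25) over 12213 genes. Alternatives were other pseudocounts, filters, scalings, no trend, each line alone, blocks, and leaving out libraries or lines. Promoters are RefSeq sequences on GRCh38.p14, and lengths and 3′ UTRs are of GENCODE v29 (Python 3.11.15).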

Additional observations from a re-analysis of the deposited data

Results flagged for a closer look

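The response to LKB1 siRNA differed between the 3 ICC lines for 44 members by limma's F-test of the difference. No group had more than 2 libraries, so no library was examined as an outlier.

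Among the genes with values given above, the adjusted p of the difference was 0.00014 for FOXM1, 0.00023 for PLK1, 0.00025 for MKI67, 0.00026 for KIF18A, 0.00044 for NUSAP1, 0.00057 for ANLN, 0.0006 for NUF2, 0.00072 for PRC1 and 0.00089 for CDC20. It was 0.001 for NCAPG, 0.0012 for DLGAP5 and KIF23, 0.0013 for AURKA, ESPL1 and KIF11, 0.0016 for CCNB2, 0.0022 for BIRC5, 0.0027 for NDC80 and 0.0032 for BUB1. It was 0.004 for NCAPH, 0.0084 for CENPE, 0.0096 for AURKB and 0.041 for CCNB1. In each of these genes the lowest log2 fold change was in RBE. PLK1, MKI67, KIF18A, ANLN and CENPE fell in RBE and rose in SSP-25.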

How the results depend on the processing

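Members lower on average numbered 41 to 43 when any 1 library was left out, and the median ran from -0.49 to -0.45. Leaving out 1 library gave 31 to 37 lower and 2 to 4 higher members in HuH-28 (median -0.39 to -0.36), 42 to 44 lower and 1 higher in RBE (-0.83 to -0.77), and 20 to 23 lower and 4 to 9 higher in SSP-25 (-0.20 to -0.16). The control median ran from 0.32 to 0.41 for RBE against HuH-28, from 0.71 to 0.77 for SSP-25 against HuH-28 and from 0.39 to 0.41 for SSP-25 against RBE. Members that differed between lines numbered 39 to 45. A lone library left in a group is assumed to vary like the others.

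With each line fitted alone, and so on fewer samples, 15 members fell and 1 rose in HuH-28. Quantile normalization gave a median of -0.12 in SSP-25 and control medians of 0.51, 0.71 and 0.21. Leaving out a line changed the average. Without HuH-28 the median was -0.52, without RBE -0.30 with 4 members higher, and without SSP-25 -0.59 with 1 higher. Without RBE the sign turned for PLK1 (0.074), MKI67 (0.11), CENPE (0.019), KIF18A (0.0081) and ANLN (0.27, adjusted p = 0.0064), each of which fell in RBE. Also without RBE, the average fall no longer passed for FOXM1, CENPI, KIF14, KIF20A, MAD2L1 and TTK (limma adjusted p from 0.0524 to 0.53). The cause of the other changes was not tested.

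Libraries of 1 number deviated together in HuH-28 and little in RBE or SSP-25. With the replicate block, 44 members differed between the lines, and 38 members fell and 3 rose in HuH-28, 44 and 1 in RBE, 24 and 8 in SSP-25 and 42 and 2 on average. With a separate replicate block within each line, added after the data were seen, 46 differed and the other counts were 40 and 3, 45 and 1, 25 and 9, and 43 and 3. On average the block within each line added ASPM (adjusted p = 0.00545) and CENPN (0.0412). The calls that changed in single lines were MAD2L1, CENPE and ASPM in HuH-28, BUB3 in RBE, and BIRC5, NEK2 and ASPM in SSP-25, and no other member's call changed in these comparisons with either block. Depth is unknown, and 2 libraries a group limit the precision.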
